A study of Mus musculus with 12 samples.

Results

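The comparison described here asks what loss of interferon-gamma alone did to gene expression in CD71-enriched bone marrow cells, with no transgene present. It sets the 3 arrays labelled Ifng-/- against the 3 arrays labelled WT, which are 6 of the 12 arrays of the series, and it covers 19935 genes. Each array held total RNA from a different male mouse of 10 to 12 weeks, and the labels give C57BL/6J as the strain and a C57BL/6 breeding background. Both groups were without treatment, and the labels do not say how the Ifng gene was disrupted. The other 6 arrays, 3 from CD70TG mice and 3 from CD70TG*Ifng-/- mice, entered the estimate of spread and gave the same loss of Ifng on the background of the CD70 transgene, for which the labels name a single clone and no promoter. Marrow cells of the hind legs were enriched on magnetic beads with an antibody to CD71, the transferrin receptor, which red cell precursors carry at high density.

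Interferon-gamma is a cytokine made mainly by T cells and natural killer cells. It binds the receptor chains Ifngr1 and Ifngr2, which signal through the kinases Jak1 and Jak2. The signal acts at interferon-gamma activated sites near target genes such as Irf1, and Irf1 and its relatives then bind interferon-stimulated response elements in further targets, among them the guanylate-binding proteins, the immunity-related GTPases and the genes of antigen presentation. In bone marrow the cytokine is known for activating macrophages and for restraining red cell production during chronic immune activation, and CD70 is a ligand that drives T cells through CD27.

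Promoters are shown for 3 genes on which the results turn: Pawr, which was the gene that changed, and Irf1 and Gbp3, which are direct and further targets of the cytokine and which did not pass the test. Each window holds the 250 bases before the most upstream start in RefSeq (GRCm38.p6). Pawr lies at chr10:108331939-108332188, Irf1 at chr11:53769764-53770013 and Gbp3 at chr3:142559794-142560043, all on the plus strand. Capitals mark matches to the interferon-gamma activated site TTCNNNGAA, which reads the same on both strands, or to the core of the response element, which is GAAA, any 2 bases and GAAA again, searched on both strands.
Pawr: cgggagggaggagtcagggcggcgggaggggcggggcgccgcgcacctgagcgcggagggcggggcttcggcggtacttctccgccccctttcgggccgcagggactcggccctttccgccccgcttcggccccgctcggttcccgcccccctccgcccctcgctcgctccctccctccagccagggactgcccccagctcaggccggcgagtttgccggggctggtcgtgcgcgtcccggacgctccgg
Irf1: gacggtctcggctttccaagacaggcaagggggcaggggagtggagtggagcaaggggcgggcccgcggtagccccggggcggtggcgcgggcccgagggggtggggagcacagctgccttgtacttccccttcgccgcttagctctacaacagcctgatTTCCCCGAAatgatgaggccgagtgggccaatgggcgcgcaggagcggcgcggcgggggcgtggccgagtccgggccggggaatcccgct
Gbp3: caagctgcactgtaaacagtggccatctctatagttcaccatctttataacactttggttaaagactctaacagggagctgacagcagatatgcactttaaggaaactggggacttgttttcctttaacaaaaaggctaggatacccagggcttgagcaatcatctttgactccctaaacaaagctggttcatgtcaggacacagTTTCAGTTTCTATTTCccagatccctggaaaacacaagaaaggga
The Irf1 window held the activated site TTCCCCGAA, whose first base lay 90 bases before the start. The Gbp3 window held 2 overlapping matches to the response element, TTTCAGTTTC at 45 and TTTCTATTTC at 39 bases before the start. Neither motif was found in the Pawr window. Of 27025 promoter windows of this length, 1929 (7.14%) held the activated site and 823 (3.05%) the response element, against 4 of 13 (30.8%) and 2 of 13 (15.4%) for genes induced by interferon-gamma, and 5 of 24 (20.8%) and 9 of 24 (37.5%) for type I interferon-stimulated genes. The shares were 1 of 10 (10%) and 0 of 10 for class I processing, 0 of 8 and 1 of 8 (12.5%) for MHC class II, and 1 of 6 (16.7%) for each motif for MHC class I. All 4 GTPase genes with a window held the response element and 2 of them the activated site. A match describes the letters and not a bound site.

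All values below are log2 values centred on each probe set's median over the 12 arrays, so that 0 is the middle of the series and no absolute level is given. A level class was recovered from the rounding of the values: 2808 of the 19935 genes had an uncentred log2 level of at least 8, here called bright. All 5 measured markers of red cell precursors (Tfrc, Alas2, Klf1, Epor and Slc4a1) were bright. So were 12 of 22 markers of resident marrow macrophages and 8 of 18 markers of mature neutrophils, but 0 of 19 T cell and 0 of 18 natural killer cell markers. Among the 6 arrays, the first principal component (39.8% of the variance) set Ifng-/- mouse 2, at 25.8, apart from the others at -10.7 to 2.68, and the second (29.7%) set Ifng-/- mouse 1 apart, at 21.2 against -14.1 to 1.42. Beside the median of a gene list, "left out" gives its range over the fits that each leave out 1 array.

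The Ifng transcript itself was at 0.03, -0.09 and 0.17 in WT and at -0.16, -0.01 and -0.03 in Ifng-/-. The groups overlapped, with a log2 difference of -0.10 ± 0.09 (SE) and an adjusted p of 0.632, and the gene was not bright. Its probe set is not known to lie in the deleted part of the gene, so these values do not check the genotype labels.

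A single gene passed the test. At an adjusted p under 0.05 (limma, Benjamini-Hochberg over all genes), 1 of 19935 genes was called (0.00502%), which was higher in Ifng-/-, and 0 were lower. The count of 1 became 42 without WT mouse 2, 9 without CD70TG*Ifng-/- mouse 2, 4 without Ifng-/- mouse 2 and 2 without CD70TG*Ifng-/- mouse 1, and Pawr was called each time. At an unadjusted p under 0.05, 2759 genes passed (13.8%), of which 1694 (8.5%) were higher and 1065 (5.34%) lower. The 3 arrays of each group did not overlap for 3708 genes (18.6%), 1880 higher (9.43%) and 1828 lower (9.17%). The median size of the log2 difference was 0.095 with a median SE of 0.092. The 95% confidence interval lay within a 2-fold change in either direction for 19886 genes (99.8%). Of the 19935 genes, 17127 were not bright, and RMA values are known to compress differences. The intervals thus bound differences of the RMA values and not of RNA amounts.

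Pawr, which encodes the pro-apoptotic protein Par-4, rose in Ifng-/- mice. Its values were -0.65, -0.88 and -0.84 in WT and 0.48, 0.77 and 0.36 in Ifng-/-. All 3 Ifng-/- arrays stood above all 3 WT arrays by a margin several times the spread within either group. The log2 difference was 1.32 ± 0.11 (SE, n = 3 per group; 95% confidence interval 1.08 to 1.57), which is 2.50-fold, with an adjusted p of 0.000215. Under 22 alternative settings, the difference ranged from 1.21 to 1.77 and the adjusted p from 7.35e-05 to 0.0119.

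Pawr also rose with loss of Ifng on the transgenic background, in mice that share no array with the first comparison. It was at -0.54, -0.37 and -0.36 in CD70TG and at 1.09, 1.21 and 1.43 in CD70TG*Ifng-/-, a log2 difference of 1.67 with an adjusted p of 2.59e-06. All 6 Ifng-deficient arrays thus lay above all 6 arrays with intact Ifng. The effect without the transgene minus that with it was -0.35 (adjusted p 0.243). In CD70TG the gene stood 0.36 above WT (adjusted p 0.055), a comparison that uses the same WT arrays.

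**Figure D1:**
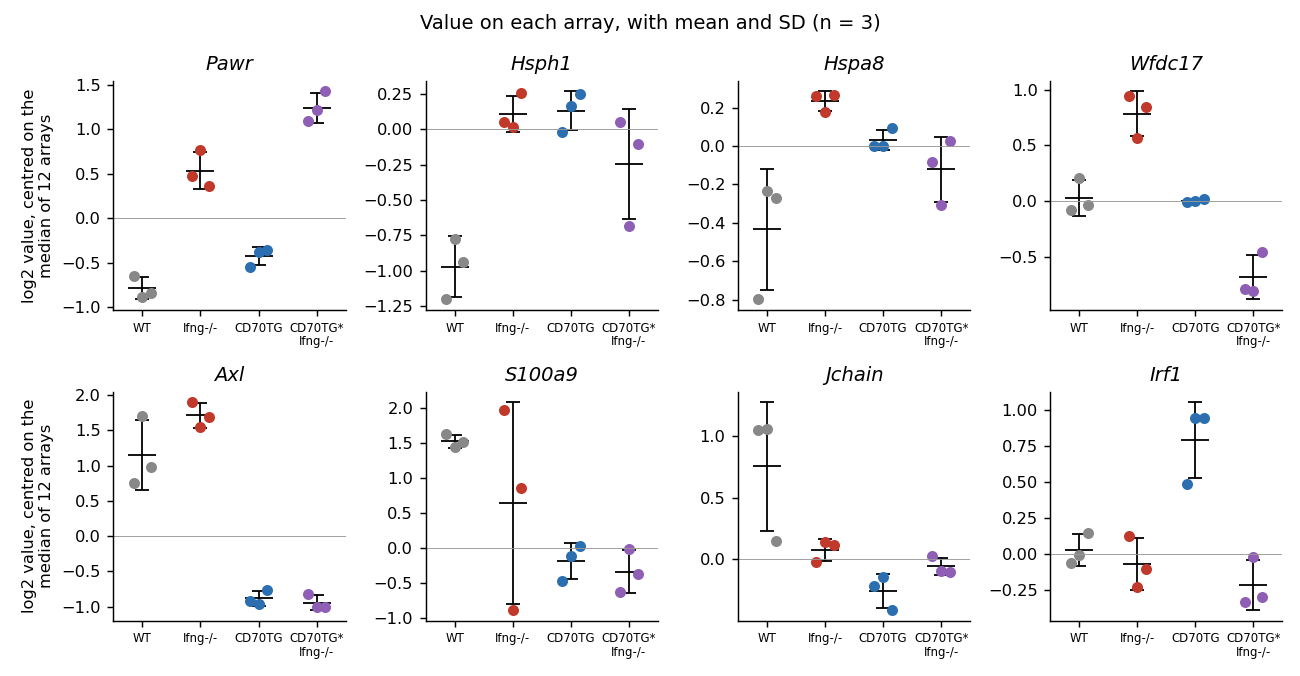
Centred log2 value (vertical axis) of 8 genes on each of the 12 arrays, by genotype, with bars for the mean and SD of 3 mice. Pawr is high in both Ifng-deficient groups, Hsph1 and Hspa8 are lower in WT than in Ifng-/- and CD70TG but, for Hspa8, overlap with CD70TG*Ifng-/-, S100a9 is scattered within Ifng-/-, and Irf1 is high in CD70TG but overlaps between WT and Ifng-/-.

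Pawr lies on chromosome 10, as Ifng does, 53 protein-coding genes away in RefSeq order. The 48 measured genes between them had a median log2 difference of 0.068, from -0.21 to 0.55, and 0 were called. At an unadjusted p under 0.05, 8 of them were higher and 1 lower. Of the 10 genes on each side of Pawr, 19 were measured and spanned -0.21 to 0.41, and 4 passed at an unadjusted p under 0.05: Nap1l1, Ppp1r12a and Ccdc59 were higher and Nav3 lower. Among the 30 genes on each side of Ifng, 56 of 60 were measured, with a median of 0.043 (left out 0.034 to 0.061), and the highest was Thap2 at 0.55 ± 0.19 (adjusted p 0.274). Over the whole of chromosome 10, 14.7% of 938 genes passed at an unadjusted p under 0.05, within the 11.1 to 17% of the other chromosomes. Of 8 measured genes known to differ between C57BL/6 substrains or colonies, 0 were called, and 1 was higher and 2 were lower at an unadjusted p under 0.05. The shares over all genes were 8.5% higher and 5.34% lower. Entpd4 was at -0.04, 0.08 and 0.13 in WT and at -0.11, -0.19 and -0.12 in Ifng-/-, with no overlap (-0.20 ± 0.07, adjusted p 0.283), and Ide was at -0.05, 0.37 and 0.31 against -0.12, 0.05 and -0.24 (-0.32 ± 0.11, adjusted p 0.283). The higher one, Nnt, the mitochondrial transhydrogenase that C57BL/6J mice carry in a truncated form, was at -0.03, 0.10 and -0.08 in WT and at 0.62, 0.01 and 0.40 in Ifng-/- (adjusted p 0.302). What part DNA flanking the disrupted Ifng gene has in the Pawr result was not tested.

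**Figure D2:**
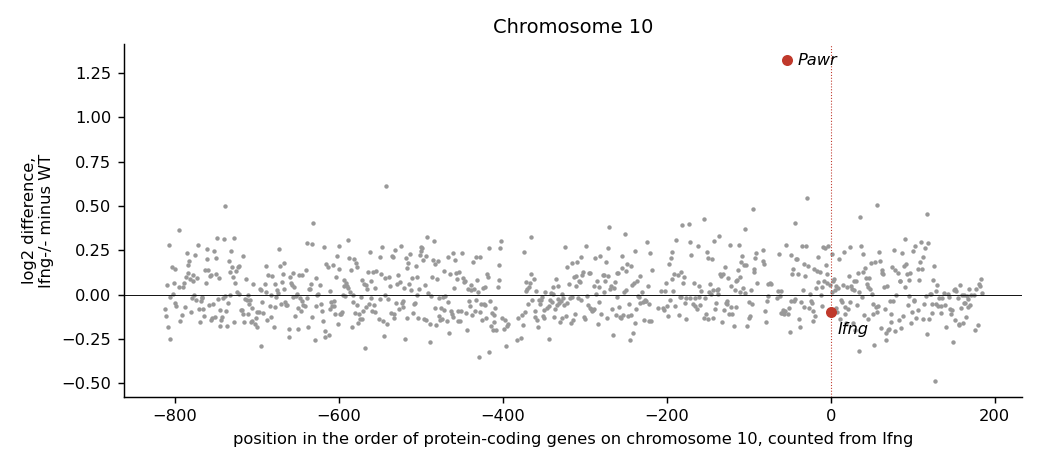
Log2 difference, Ifng-/- minus WT (vertical axis), of each measured protein-coding gene of chromosome 10 in its order from Ifng (horizontal axis, in genes). Pawr at 1.32 stands alone 53 genes to the left of Ifng, while the 48 genes between them lie from -0.21 to 0.55.

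The genes that follow Pawr in order of p did not pass, and they included chaperone genes. Hsph1, which encodes a nucleotide exchange factor of Hsp70, was at -1.20, -0.78 and -0.94 in WT and at 0.05, 0.02 and 0.26 in Ifng-/-. The groups did not overlap, and the log2 difference was 1.08 ± 0.16 (SE) with an adjusted p of 0.0772. Chordc1, an Hsp90 co-chaperone, went from -0.99, -0.45 and -0.83 to 0.24, 0.17 and 0.24, a difference of 0.98 ± 0.16 (adjusted p 0.0931). Hspa8, the constitutive Hsp70, was at -0.80, -0.23 and -0.27 against 0.26, 0.18 and 0.27, a difference of 0.67 ± 0.13 (adjusted p 0.171). For these genes every WT array lay below every Ifng-/- array, and WT mouse 1 was the lowest of all.

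The co-chaperone Stip1 (0.57 ± 0.11, adjusted p 0.171), the Hsp40 protein Dnajb1 (0.48 ± 0.11, adjusted p 0.217) and the inducible Hsp90 Hsp90aa1 (0.34 ± 0.09, adjusted p 0.231) gave smaller differences of the same sign. Of 83 heat shock proteins and co-chaperones, a list drawn up after seeing these values, 21 were higher and 0 lower at an unadjusted p under 0.05, with a median of 0.093 (left out 0.064 to 0.141) against -0.01 over all genes. Over all genes 8.5% were higher at that p, as were 607 of the 2808 bright ones, and 30 of the 83 were bright. The 9 subunits of the CCT chaperonin, which folds actin and tubulin, all had positive differences (median 0.194, left out 0.138 to 0.263), and 5 passed at an unadjusted p under 0.05. This list too was added later, 8 of its genes were bright, and its median was 0.089 after centring within level classes.

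In CD70TG, Hsph1 was at -0.02, 0.17 and 0.25, Chordc1 at 0.02, -0.02 and -0.09, and Hspa8 at 0.00, 0.00 and 0.09, all above every WT array. In CD70TG*Ifng-/- Hsph1 was at 0.05, -0.69 and -0.11, Chordc1 at 0.02, -0.60 and 0.07, and Hspa8 at -0.08, -0.30 and 0.02. Mouse 2 of that group lay above every WT array for Hsph1 but within the WT range for Chordc1 and Hspa8. The effect of Ifng loss on that background was thus -0.38 for Hsph1 (adjusted p 0.383), -0.14 for Chordc1 (adjusted p 0.775) and -0.15 for Hspa8 (adjusted p 0.698). The effects without and with the transgene differed by 1.46 for Hsph1 (adjusted p 0.00727), by 1.12 for Chordc1 (adjusted p 0.0241) and by 0.82 for Hspa8 (adjusted p 0.0369).

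Hsph1 was called when the 6 arrays were fitted alone (adjusted p 0.0419), and after quantile normalization its difference was 1.66 and that of Chordc1 1.43. Of the list of immediate early and handling stress genes, which respond to cell preparation and include Hsph1 and Hspa8, 9 of 23 were higher and 0 lower at an unadjusted p under 0.05 (median 0.174, left out 0.060 to 0.300). Of the 23, 8 were bright, and 8.5% of all genes were higher at that p. The array medians of that list ran from -0.047 to 0.062 in WT and from 0.001 to 0.258 in Ifng-/-, and the part of cell handling in the chaperone values was not tested.

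Wfdc17, a protease inhibitor domain protein of activated macrophages, was at -0.08, 0.21 and -0.04 in WT and at 0.95, 0.56 and 0.85 in Ifng-/-. The groups did not overlap, and the difference was 0.76 ± 0.12 (SE; 95% confidence interval 0.51 to 1.00) with an adjusted p of 0.0772. In CD70TG*Ifng-/- it fell below CD70TG by 0.69 (adjusted p 0.00529), and the effects without and with the transgene differed by 1.45 (adjusted p 0.000948). Ccdc117 (0.49 ± 0.08, adjusted p 0.0931), Cacybp (0.47 ± 0.08, adjusted p 0.138), the lipid droplet protein Plin2 (0.62 ± 0.11, adjusted p 0.152), the circadian repressor Per1 (0.49 ± 0.09, adjusted p 0.152), Zbtb25 (0.54 ± 0.10, adjusted p 0.171), the collagen hydroxylase P4ha1 (0.61 ± 0.11, adjusted p 0.171) and the translation factor subunit Eif3f (0.43 ± 0.08, adjusted p 0.171) completed the 12 highest-ranked genes on that side. These 12 were taken only from genes whose groups did not overlap, which held for 9.43% of all genes on that side.

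Kcnma1, a potassium channel gene named after its values were seen, had the largest difference of all, at 2.09 ± 0.50 (adjusted p 0.217). It came from 1 of 2 probe sets, which read 6.70, 0.63 and 5.22 in Ifng-/- and 0.12, -0.42 and 0.23 in WT. The same probe set read 0.037, -0.286 and -0.234 in CD70TG and -0.265, -0.037 and -0.409 in CD70TG*Ifng-/-. The other probe set ran from -0.05 to 0.12 over the 6 arrays of Ifng-/- and WT. The 10 probe sets nearest in number to the divergent one were annotated to chromosome 8, whereas the gene is on chromosome 14, so the gene name of this signal is uncertain.

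No gene was lower at the threshold (0 of 19935 by limma, 1065 at an unadjusted p under 0.05). The 12 ranked first on that side had differences from -0.30 to -0.50, and all had an adjusted p of 0.217. They included 4 odorant receptors of the nose (Olfr211, Olfr603, Olfr1087 and Olfr559), the testis genes Spata31 and Spatc1l, the histone gene H2bc4 and the ubiquitin ligase Mid1. Olfr211 was at 0.35, 0.21 and 0.05 in WT and at -0.25, -0.26 and -0.09 in Ifng-/- (difference -0.40 ± 0.08). H2bc4, which was bright, was at 0.41, 0.24 and 0.24 against -0.41, 0.01 and -0.22 (difference -0.50 ± 0.11). Of 1016 olfactory receptors, which marrow cells are not known to use and of which 1 was bright, 165 were lower and 2 higher at an unadjusted p under 0.05 (median -0.087, left out -0.103 to -0.055). That list was added after the values were seen.

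**Figure D3:**
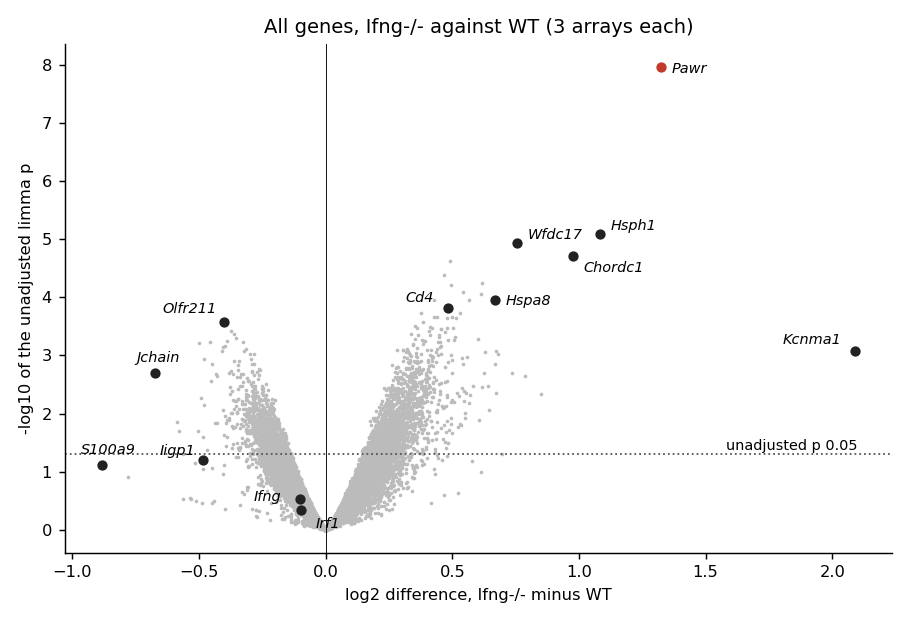
Log2 difference, Ifng-/- minus WT (horizontal axis), against -log10 of the unadjusted limma p (vertical axis) for all 19935 genes, with the unadjusted threshold dotted. Pawr is the single gene past the adjusted threshold, and Irf1, Ifng and Iigp1 lie below the dotted line.

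The receptor and its signalling chain did not pass the test. Ifngr1 was at -0.02, 0.40 and 0.02 in WT and at 1.07, 0.44 and 0.38 in Ifng-/-, a difference of 0.50 ± 0.19 (adjusted p 0.301) with mouse 1 the highest of the 6. Ifngr2 (0.14 ± 0.18, adjusted p 0.752) and the feedback inhibitor Socs1 (-0.19 ± 0.12, adjusted p 0.489) overlapped between groups. Irf9, a transcription factor of type I interferon signalling, was at -0.23, -0.01 and 0.01 against 0.38, 0.19 and 0.21 (0.34 ± 0.10, adjusted p 0.245). Of 11 measured genes of the chain, 0 were called, and 2 were higher and 0 lower at an unadjusted p under 0.05. Over all genes 8.5% were higher at that p.

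The classical targets of the cytokine did not pass the test. Irf1 was at -0.06, -0.01 and 0.15 in WT and at 0.12, -0.23 and -0.11 in Ifng-/- (-0.10 ± 0.13, 95% confidence interval -0.38 to 0.18, adjusted p 0.749). Of 9 interferon-inducible GTPases, which attack the vacuoles of intracellular microbes, 0 were called and 0 passed at an unadjusted p under 0.05 (median -0.056, left out -0.111 to 0.006). Iigp1 was at 0.00, 0.33 and 0.58 against 0.00, -0.23 and -0.32, a difference of -0.48 ± 0.24 (95% confidence interval -0.998 to 0.031, adjusted p 0.381). Gbp3 was at -0.05, 0.10 and 0.34 against 0.05, -0.23 and -0.13 (-0.23 ± 0.18, adjusted p 0.563), whereas Gbp8 had the opposite sign (0.29 ± 0.17, adjusted p 0.44). Of 22 other genes induced by interferon-gamma, 0 were called, 1 was higher and 0 were lower at an unadjusted p under 0.05 (median 0.019, left out -0.038 to 0.084). Cxcl9, a chemokine that draws T cells, was at 0.03, 0.06 and 0.25 against -0.26, -0.12 and -0.35 (-0.35 ± 0.17, 95% confidence interval -0.72 to 0.01, adjusted p 0.368), with no overlap between groups.

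Antigen presentation genes did not pass either. Of 9 MHC class I genes, 0 were called and 0 passed at an unadjusted p under 0.05, with differences from -0.13 to 0.02 (median -0.050, left out -0.156 to 0.060). B2m, the light chain of class I, had a difference of 0.00, and WT mouse 3, at 0.57, stood above WT mouse 1, at -0.34. H2-Q4 was at -0.34, -0.06 and 0.46 in WT and at 0.10, -0.15 and 0.06 in Ifng-/- (-0.02 ± 0.16). Of 12 immunoproteasome and peptide loading genes, 0 were called and 1 was higher at an unadjusted p under 0.05 (median -0.017, left out -0.096 to 0.055, and 0.005 after centring within level classes). The peptide transporter Tap1 differed by -0.13 ± 0.14 and the immunoproteasome subunit Psmb9 by -0.15 ± 0.14. Of 11 MHC class II genes, 0 were called and 0 passed at an unadjusted p under 0.05 (median 0.116, left out 0.018 to 0.220), and H2-Ab1 differed by 0.27 ± 0.29. For every measured member of these 5 target lists, the 95% confidence interval lay within a 2-fold change. The same held for 99.8% of all genes, most of which were not bright. Bright were 2 of 9 GTPases, 1 of 22 other induced genes and 2 of 9 class I genes. So were 4 of 12 class I processing and 6 of 11 class II genes.

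Type I interferon-stimulated genes, which answer interferon-alpha and -beta, had mostly positive differences. Of 31 measured, 0 were called, but 28 had positive differences (median 0.135, left out 0.088 to 0.226), and 8 were higher and 0 lower at an unadjusted p under 0.05. Of the 31, 11 were bright. Over all genes 9397 of 19935 differences were positive, and 8.5% were higher at that p. Oas1a, a sensor of double-stranded RNA, was at -0.17, -0.01 and -0.23 in WT and at 0.14, 0.17 and 0.27 in Ifng-/- (0.33 ± 0.08, adjusted p 0.217). Trim30a was at -0.92, 0.01 and -0.01 against 1.05, 0.07 and 0.50 (0.85 ± 0.25, adjusted p 0.245). In both genes the groups did not overlap, and in Trim30a the distance came mostly from WT mouse 1 and Ifng-/- mouse 1. Lgals3bp (0.54 ± 0.17, adjusted p 0.253) and Irf7 (0.39, adjusted p 0.279) had the same sign.

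On the transgenic background many of these genes fell with the loss of Ifng. There 282 genes were called (1.41%), 85 higher (0.426%) and 197 lower (0.988%) in CD70TG*Ifng-/- than in CD70TG. The median log2 difference was -1.979 for the GTPases (8 of 9 called lower) and -0.911 for immunoproteasome and peptide loading genes (10 of 12 called lower). It was -0.946 for MHC class II (6 of 11 called lower) and -0.588 for class I (4 of 9 called lower). For the other induced genes it was -0.473 (10 of 22 called lower), and for type I genes -0.430 (11 of 31 called lower). Iigp1 went from 2.68, 3.94 and 3.72 in CD70TG to -0.22, -0.01 and -0.20 in CD70TG*Ifng-/-, close to both groups without the transgene. Irf1 fell by 1.01 there (adjusted p 0.000756).

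The test of the difference between both effects of Ifng loss called 377 genes (1.89%), 321 higher (1.61%) and 56 lower (0.281%) without the transgene than with it. It called 7 of 9 GTPases, 9 of 12 immunoproteasome and peptide loading genes, 6 of 11 class II, 4 of 9 class I, 9 of 22 other induced genes and 13 of 31 type I genes, all with the more positive effect in the mice without the transgene. The difference was 3.11 for Iigp1 (adjusted p 0.000818), 2.72 for H2-Q4 (adjusted p 0.000132), 2.85 for H2-Ab1 (adjusted p 0.00468) and 0.91 for Irf1 (adjusted p 0.0265). Across all 19935 genes the effects with and without the transgene had a Pearson r of -0.327, given as a description because genes are not independent. The split of the 377 calls moved with the scaling and weighting, to 362 higher and 130 lower after centring within level classes and to 1392 and 648 with array weights. With single arrays left out it ran from 74 and 8 without WT mouse 1 to 614 and 97 without CD70TG*Ifng-/- mouse 1.

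**Figure D4:**
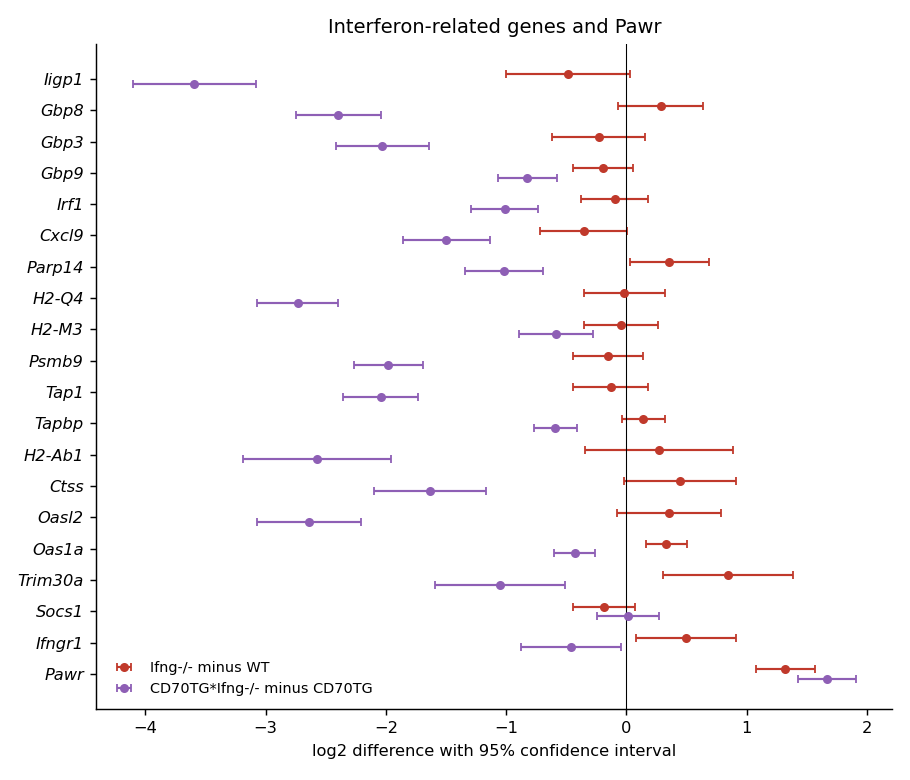
Log2 difference with its 95% confidence interval (horizontal axis) for 20 genes, Ifng-/- minus WT in red and CD70TG*Ifng-/- minus CD70TG in purple. Without the transgene the intervals of Irf1, the 4 GTPases and the 2 class I genes cover 0. Those of Parp14, Oas1a, Trim30a and Ifngr1 lie above 0. With the transgene the differences of genes other than Pawr run from 0.02 for Socs1 down to -3.59 for Iigp1. Pawr is above 0 in both.

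Markers of the resident macrophages that feed and clear red cell precursors in erythroblast islands were at higher values in Ifng-/-, without passing the test. Of 22 measured, 0 were called, 20 had positive differences (median 0.310, left out 0.178 without WT mouse 3 to 0.505 without WT mouse 2), and 8 were higher and 0 lower at an unadjusted p under 0.05. Over all genes 8.5% were higher at that p, as were 607 of the 2808 bright ones. Adgre1 (F4/80) was at 0.51, 1.21 and 0.44 in WT and at 1.71, 1.17 and 1.29 in Ifng-/- (0.67 ± 0.20, adjusted p 0.245). Axl, a receptor for dying cells, was at 0.76, 1.71 and 0.97 against 1.90, 1.55 and 1.69 (0.57 ± 0.18, adjusted p 0.255). WT mouse 2 was as high as the Ifng-/- mice in both genes, and the groups overlapped through it. Csf1r, the receptor of the macrophage growth factor, was at 0.12, 0.52 and 0.26 against 1.00, 0.59 and 0.75, with no overlap (0.48 ± 0.13, adjusted p 0.239). In whole enriched marrow, more cells of a type and more RNA per cell cannot be told apart.

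The macrophage values depended on WT mouse 2 and on the scaling. Without that mouse, 42 genes were called higher and 0 lower. They included the macrophage genes Axl, Cd5l, Mertk and Mrc1, the iron carrier Trf, the innate receptors Tlr4 and Tlr7, and the chaperone genes Hsph1, Hspa8 and Chordc1. After quantile normalization the median of the macrophage list was 0.042. The array medians of the list ran from 0.516 to 1.223 in WT and from 0.946 to 1.293 in Ifng-/-. Of 14 macrophage iron recycling genes, 0 were called (median 0.087, left out 0.038 to 0.113, and -0.018 after centring within level classes). At an unadjusted p under 0.05, 2 were higher and 1 lower, against 8.5% and 5.34% of all genes. Trf differed by 0.43 ± 0.19 (adjusted p 0.348).

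Mature neutrophil genes separated the Ifng-/- mice from each other. S100a9, a calcium-binding protein of neutrophils, was at 1.62, 1.43 and 1.51 in WT and at 1.96, -0.89 and 0.85 in Ifng-/- (-0.88 ± 0.46, adjusted p 0.402). Mmp8 was at 1.21, 1.55 and 1.12 against 2.24, -0.70 and 0.76. Mouse 2 was the lowest and mouse 1 the highest of all 6 in both. Of 18 markers, 0 were called and 0 passed at an unadjusted p under 0.05, and the median was -0.270. It turned to 0.251 without Ifng-/- mouse 2, was -0.952 without Ifng-/- mouse 1 and -0.574 after quantile normalization, so it has no settled direction. The array medians were 0.847 to 1.145 in WT and -0.589 to 1.960 in Ifng-/-. Among eosinophil genes, Epx was at 1.73, -0.08 and 1.01 in Ifng-/- against 0.17, 0.38 and 0.01 in WT, and Ear6 at 1.88, -0.17 and 1.36 against 0.34, 0.72 and 0.17, with mouse 2 again the lowest. Ccr3, the eotaxin receptor, did not share that order, at 1.96, 1.79 and 2.00 against 1.38, 2.06 and 1.16. Of 15 eosinophil, basophil and mast cell genes, 0 were called and 0 passed at an unadjusted p under 0.05 (median 0.047, left out -0.058 to 0.323). Without Ifng-/- mouse 2, Ear6 was called, at 1.21 (adjusted p 0.0394), as was Wfdc17 (adjusted p 0.0148). The uneven granulocyte values went with the widest spread of the 4 groups (median SD per gene 0.108 in Ifng-/- against 0.094 to 0.095), and its part in the number of calls was not tested.

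Most B cell, T cell and natural killer cell markers had negative differences, and none passed the test. Of these markers, 2 of 26 B cell, 0 of 19 T cell and 0 of 18 natural killer cell genes were bright. Negative differences were also found for 9955 of the 17127 genes that were not bright (median -0.025). Of the 1016 olfactory receptors, 841 were negative (median -0.087), and 165 were lower at an unadjusted p under 0.05. Jchain, the joining chain of secreted antibodies, was at 1.05, 1.06 and 0.15 in WT and at -0.02, 0.14 and 0.11 in Ifng-/- (-0.68 ± 0.18, adjusted p 0.229). Without WT mouse 3, whose value is close to those of Ifng-/-, it was called lower at -0.98 (adjusted p 0.00205). Of 26 B cell genes, 0 were called, and 1 was higher and 4 were lower at an unadjusted p under 0.05 (median -0.097, left out -0.203 to 0.041, with a positive sign without WT mouse 2 or without Ifng-/- mouse 2). The lower ones included the surrogate light chain genes Vpreb1 (-0.25 ± 0.11), Vpreb2 (-0.28 ± 0.10) and Vpreb3 (-0.35 ± 0.12), and the recombinase gene Rag2 (-0.20 ± 0.08). Over all genes 5.34% were lower and 8.5% higher at that p, as were 1043 and 1087 of the 17127 that were not bright. Of 10 plasma cell genes, 0 were called, and Xbp1, which drives secretion, was at -0.33, 0.02 and -0.02 against 0.47, 0.14 and 0.20 (0.38 ± 0.11, adjusted p 0.245). Of 19 T cell genes, 0 were called, and 16 had negative differences (median -0.056, left out -0.116 to 0.024, positive without Ifng-/- mouse 2). The highest was Cd4, at 0.18, 0.35 and 0.15 in WT and 0.70, 0.82 and 0.60 in Ifng-/- (0.48 ± 0.10, adjusted p 0.213), while Cd3e differed by -0.16 ± 0.12. Of 18 natural killer and cytotoxic genes, 0 were called and 1, Klrb1c at -0.19 ± 0.08, was lower at an unadjusted p under 0.05.

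**Figure D5:**
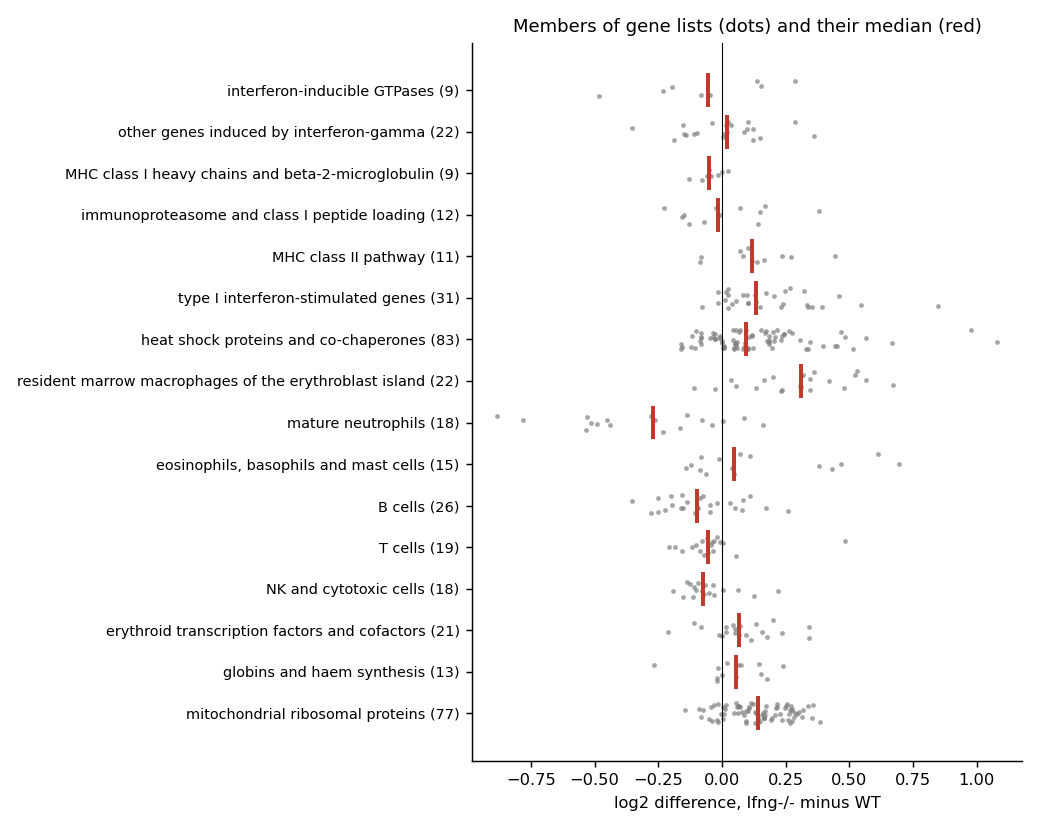
Log2 difference, Ifng-/- minus WT (horizontal axis), of each measured member of 16 gene lists (dots, spread vertically to be seen) with the list's median (red line) and its number of members in brackets. Medians run from -0.270 for mature neutrophils to 0.310 for resident macrophages, and the lists on GTPases, other induced genes, MHC class I and class I processing centre near 0.

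Red cell genes did not pass the test, and their differences were small. The master regulator Gata1 was at -0.01, -0.12 and -0.07 in WT and at -0.14, 0.21 and -0.05 in Ifng-/- (0.07 ± 0.10, 95% confidence interval -0.13 to 0.28, and of opposite sign, -0.033, after centring within level classes). Klf1, which switches on globin genes, differed by 0.17 ± 0.09 (adjusted p 0.411), the erythropoietin receptor Epor by -0.01 ± 0.12 and Tfrc, the gene of the sorting marker CD71, by -0.02 ± 0.08. Of 21 erythroid transcription factors and cofactors, 0 were called, and 3 were higher and 0 lower at an unadjusted p under 0.05: the looping cofactor Ldb1 (0.34 ± 0.10), Nfia (0.24 ± 0.09) and the globin repressor Zbtb7a (0.34 ± 0.13). Each of these 3 was without overlap between groups, as were 9.43% of all genes on that side. Of the 21, 17 were bright, and 607 of the 2808 bright genes were higher at that p.

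Of 13 globin and haem genes, 0 were called (median 0.054, left out -0.008 to 0.091, and -0.051 after centring within level classes). Alad, the second enzyme of haem synthesis, was at 0.24, 0.14 and -0.10 against -0.34, -0.04 and -0.14 (-0.27 ± 0.10, adjusted p 0.301), whereas Ppox, a later enzyme, differed by 0.24 ± 0.10, and Alas2, the first and rate-limiting one, by 0.02. Of 22 red cell membrane genes, 0 were called and 2 were higher at an unadjusted p under 0.05. Of 21 late maturation genes, 0 were called and 1, the autophagy gene Map1lc3b (0.18 ± 0.08), was higher at that p. Of 18 iron uptake genes, 0 were called and 3 were higher, with Aco1, the iron-sensing regulator of transferrin receptor mRNA, at -0.34, -0.18 and -0.15 in WT and 0.05, 0.24 and 0.10 in Ifng-/- (0.35 ± 0.08, adjusted p 0.217). Most members of each of these lists were bright, and 607 of the 2808 bright genes were higher at that p. The 95% confidence interval of every member of these 5 erythroid lists lay within a 2-fold change. The same held for 99.8% of all genes.

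Genes of growth were at slightly higher values. So were bright genes in general. Myc was not bright. Bright were 13 of 77 mitochondrial ribosomal proteins, 54 of 93 respiratory chain genes and 47 of 60 cytosolic ribosomal proteins. So were 32 of 35 proteasome and 29 of 31 DNA replication genes. The part of the level class in these values was not tested. Myc, the driver of ribosome production, was at -0.77, -0.49 and -0.45 in WT and at -0.12, 0.24 and 0.04 in Ifng-/- (0.62 ± 0.17, adjusted p 0.229), and its effects without and with the transgene differed by 1.38 (adjusted p 0.0119). Of 77 mitochondrial ribosomal proteins, 0 were called, and 20 were higher and 0 lower at an unadjusted p under 0.05 (median 0.143, left out 0.091 to 0.2). The same counts were 21 and 0 of 93 for the respiratory chain (median 0.081, left out 0.040 to 0.129), 9 and 0 of 60 for cytosolic ribosomal proteins (median 0.094, left out 0.046 to 0.131), 4 and 0 of 35 for the proteasome (median 0.105, left out 0.056 to 0.173) and 6 and 0 of 31 for DNA replication (median 0.118, left out 0.04 to 0.2). Over the 2808 bright genes the median was 0.110, with 607 higher and 22 lower at that p, against -0.025 with 1087 and 1043 over the 17127 others. After centring within level classes the medians were 0.152 for mitochondrial ribosomal proteins, 0.022 for the respiratory chain, -0.003 for cytosolic ribosomal proteins, 0.019 for the proteasome and 0.037 for DNA replication.

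Cell death genes other than Pawr did not pass. Of 22 measured, 0 were called, and 3 were higher and 0 lower at an unadjusted p under 0.05 (median 0.045, left out -0.005 to 0.081): the initiator caspase genes Casp8 (0.28 ± 0.11) and Casp9 (0.21 ± 0.09) and Bcl2l11, which encodes the pro-apoptotic protein Bim (0.29 ± 0.13). Of 16 p53 targets, 0 were called, with Sesn2 (0.26 ± 0.10), Mdm2 (0.26 ± 0.11) and Ccng1 (0.29 ± 0.13) higher at that p. Of 18 genes of erythropoietin and Stat5 signalling, 0 were called and Stat5b (0.22 ± 0.08) was higher at that p. Over all genes 8.5% were higher at that p.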

How the data were processed

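Total RNA of 12 mice, 3 in each of 4 genotype groups, was measured on 1 array per mouse. The deposited values are log2 expression values made by RMA, per the submitters' processing notes, whose version is not given in the sources used here. Each of the 28815 deposited probe sets has a median of 0 over the 12 arrays, which removes absolute levels, and array background or intensity cannot be recovered from them. The level class was read from the single-precision rounding step of values between 0.001 and 0.5 in size (tolerance 0.05 of a step).

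Probe sets with exactly 1 gene symbol (21780) were averaged per gene, which gave 19935 genes. 1605 probe sets with several symbols and 5430 with none were not used. Some listed genes are not reported here. limma 3.58.1 (R 4.3.3) fitted 4 group means over all 12 arrays with eBayes, Benjamini-Hochberg adjustment over all genes and a threshold of 0.05, after a check on simulated data. Confidence intervals are 95%. Fold changes are on the log2 scale of RMA values, which are known to compress differences. Python 3.11.15 with pandas 2.3.3 made the tables.

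The genes named are Ifng, its receptor and main targets and 4 erythroid genes, the 12 highest-ranked genes without overlap in each direction, up to 4 members of each list by p, and the 5 leading genes in each direction of the difference between both Ifng effects. Other list members named were chosen after their values were seen. The groups, members and lists were chosen with earlier results of these data known. The lists of heat shock proteins, CCT subunits and olfactory receptors were added after the values were seen. Lists are described by counts and medians, with no set test. Promoter windows are from RefSeq (GRCm38.p6), and 15561 of the 19935 genes matched one. Alternatives were another scaling, other rules for probe sets, robust or weighted fits, a replicate block, the 6 arrays alone, bright genes alone and leaving out each array.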

Additional observations from a re-analysis of the deposited data

Results flagged for a closer look

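The effect of losing Ifng without the CD70 transgene is Ifng-/- minus WT, and that with it is CD70TG*Ifng-/- minus CD70TG. The effects differed for 53 of the 185 named genes by limma's interaction term at an adjusted p under 0.05. Among all genes the share was 377 of 19935 (1.89%). Some named genes were chosen by this same difference. Others were chosen by a small p for Ifng-/- against WT, which is a term of it, so the shares are not comparable. Values below are the log2 effect without the transgene minus that with it.

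Among the GTPases and other targets of interferon-gamma, the difference was 3.11 for Iigp1, 2.68 for Gbp8, 1.80 for Gbp3, 1.37 for Parp14, 1.14 for Cxcl9, 0.91 for Irf1, 0.88 for Ly6e and 0.63 for Irf9. In antigen presentation it was 2.85 for H2-Ab1, 2.72 for H2-Q4, 2.08 for the protease Ctss, 1.91 for Tap1, 1.83 for Psmb9, 0.83 for Pdia3 and 0.73 for Tapbp. Type I genes gave 2.99 for Oasl2, 1.90 for Trim30a, 1.498 for Lgals3bp and 0.76 for Oas1a.

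Myeloid genes gave 1.64 for Ly86, 1.45 for Wfdc17, 1.22 for Adgre1 and 0.98 for Csf1r, and the B cell gene Vpreb3 gave -0.71. Chaperones and their partners gave 1.46 for Hsph1, 1.12 for Chordc1, 0.82 for Hspa8, 0.81 for Stip1 and 0.68 for Cacybp. In all 5 of these every WT array lay below every Ifng-/- and every CD70TG array, while mouse 2 of CD70TG*Ifng-/- lay within the WT range for Chordc1, Hspa8 and Stip1.

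Genes of growth and metabolism gave 1.38 for Myc, 0.81 for Plin2, 0.73 for P4ha1, 0.68 for Psmb2, 0.65 for Mrpl38, 0.61 for Aco1, 0.59 for Rps18, 0.58 for Ndufc1, 0.57 for Eif3f, 0.55 for Rps15a and 0.51 for Ndufs7. Cell death and p53 genes gave 0.88 for Ccng1, 0.80 for Casp8 and -0.79 for Gadd45a. Zbtb25 gave 0.84 and Ccdc117 0.54. Among genes with the more negative effect without the transgene, Grap2 gave -1.28, Runx1t1 -1.22, H2bc4 -0.80, the late maturation gene Riok3 -0.70, Mettl11b -0.69, Pttg1 -0.67, Olfr211 -0.64 and Oxct2a -0.53.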

How the results depend on the processing

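Pawr was called, higher in Ifng-/-, in 24 of 25 fits including the main one. The remaining fit held bright genes only, and Pawr is not among the bright genes. With 3 arrays per group the number of mice limits what can be called, and no depth or background is known for these values. Against 1 gene called higher, 2 were called with the 6 arrays alone, 5 after quantile normalization, 7 with array weights, 7 among bright genes, 4 without Ifng-/- mouse 2 and CD70TG mouse 3 together, and 1 to 42 when each array was left out in turn, with 42 without WT mouse 2, 9 without CD70TG*Ifng-/- mouse 2 and 4 without Ifng-/- mouse 2. The number called lower was 0 to 1 when each array was left out (Jchain without WT mouse 3). For the difference between both Ifng effects (321 higher, 56 lower), the counts were 226 and 31 after quantile normalization, 362 and 130 after centring within level classes, and 1392 and 648 with array weights. They were 74 to 614 and 6 to 97 when each array was left out, lowest without WT mouse 1 and without CD70TG*Ifng-/- mouse 2, and highest without CD70TG*Ifng-/- mouse 1. Of 4131 values of named genes under alternatives, 40 crossed to an adjusted p under 0.05. Pawr alone was called in the main fit, so no other named gene could lose a call, and Pawr lost none. No gene changed sign while called in either fit. Without a call in either fit, the sign changed for 16 named genes with single arrays left out and for 13 under the other settings. The causes of these shifts were not tested.

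Same-numbered WT and Ifng-/- arrays had deviations correlated at -0.17, 0.0879 and 0.159, in replicate order. With so few arrays per group, these values cannot decide whether replicate numbers pair the mice. With the replicate block, 1 gene was called higher and 0 lower, Pawr with an adjusted p of 0.0028, and the difference between both effects gave 112 and 16.

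List medians that moved by more than the spread between arrays were as follows. After quantile normalization, Ifng signalling was -0.006, macrophage iron 0.011 and Ifng neighbours 0.031, and after median centring Ifng neighbours were 0.052. After centring within level classes, Ifng signalling was -0.025, macrophage iron -0.018, globin and haem -0.051, red cell membrane -0.110, late maturation -0.118, erythroid iron -0.035, cytosolic ribosome -0.003, Ifng neighbours 0.053 and CCT 0.089. Ifng signalling was -0.015 with array weights. Among bright genes, class I processing was 0.159, mitochondrial ribosome 0.257, immediate early genes 0.411, Ifng neighbours 0.115 and chaperones 0.201. Without Ifng-/- mouse 2 and CD70TG mouse 3 together, chosen after seeing the data as was the fit of single probe sets, Ifng signalling was -0.005, plasma cells 0.018, T cells 0.024, NK cells -0.012, megakaryocytes -0.001, immediate early genes 0.300, strain markers 0.095, sex-linked genes -0.063 and Ifng neighbours 0.058. With each array left out, medians ran from -0.035 to 0.164 for Ifng signalling, -0.097 to 0.023 for plasma cells, -0.116 to 0.024 for T cells, -0.104 to -0.012 for NK cells, -0.075 to -0.001 for megakaryocytes, -0.045 to 0.076 for progenitors, 0.060 to 0.300 for immediate early genes, -0.052 to 0.010 for p53 targets, -0.025 to 0.095 for strain markers, -0.063 to 0.097 for sex-linked genes, 0.034 to 0.061 for Ifng neighbours and 0.064 to 0.141 for chaperones.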
